A study of Homo sapiens with 6 samples.

Results

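ATP-binding cassette (ABC) transporters are proteins that bind and hydrolyse ATP on a conserved pair of nucleotide-binding domains, and most of them use that energy to move lipids, metabolites, peptides or drugs across a membrane. The human genes are sorted by sequence into subfamilies A to G. Those of A and G mainly carry lipids and sterols, those of B and C include the drug efflux pumps and the carriers of mitochondria and lysosomes, those of D bring acyl-CoA esters into peroxisomes, and the proteins of E and F have no membrane domain and act on ribosomes. In pancreatic cancer cells the family is best known for drug efflux.

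Transcripts of the family were read on Illumina BeadChips in PANC-1, an established line from a human pancreatic ductal carcinoma. The cells had received either a control siRNA (siControl) or an siRNA that the study's title ties to the orphan nuclear receptor NR4A1 (siNR4A1 here, spelled siTR4A1 in the sample labels). Each of the 2 groups held 3 arrays of total RNA, and no dose or time after transfection is given in the sources used here. Members were all probes whose gene symbol in the deposited intensity table begins with ABC, a letter from A to G and a digit. This rule found 91 of 47230 probes and 49 of 30563 genes, and 4 of the 49 (ABCA11, ABCC13, ABCC6P1 and ABCC6P2) are pseudogenes in RefSeq. Nothing in the labels ties the replicates to separate cultures. The p-values therefore set group differences against a spread between arrays that may be technical alone.

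Arrays differed in brightness. Mean signal per array ran from 332 to 623 within siControl and from 439 to 520 within siNR4A1, and the number of arrays limits the precision. A probe counted as detected where its signal exceeded the 95% point of its array's background, a level between 96.9 and 131 signal units; by construction about 1 in 20 background probes would pass it on 1 array. NR4A1 itself was detected on 0 of 6 arrays with each of its 3 probes (exact two-sided permutation p = 0.3, 1 and 0.9; 3 against 3 arrays cannot go below 0.1), so the knockdown cannot be read from its transcript here. Of the line's epithelial markers KRT8, KRT18 and EPCAM were detected on 6 arrays, KRT19 on 5, and KRT7 and CDH1 on 0. Of 20 markers of acinar, endocrine, blood, endothelial and liver cells, 13 were detected on 0 arrays, including PRSS1, GCG, CD3E and PECAM1, and 3 were bright enough to test: CD14, HBA1 and ALB differed in siNR4A1 by 0.44, 0.40 and -0.32 on the log2 scale (limma, adjusted p = 0.0115, 0.0416 and 0.0463). The summed normalized signal of the 20 ran from 1493 to 1597 in siControl and from 1581 to 1602 in siNR4A1; its part in the results below was not tested.

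To be tested, a gene needed a probe detected on at least 3 of the 6 arrays, and 25 of the 49 members met this. A further 9 were detected on only 1 or 2 arrays and 15 on none. Subfamily A had 6 of 13 genes tested, B 5 of 9, C 6 of 14, D 2 of 4, E its only gene, F all 3 and G 2 of 5. Of the 25, 18 were detected on all 6 arrays and 7 on 3 to 5 arrays. The 24 members left out had signals between 0.712 and 1.14 times the detection threshold of their array on their brightest probe.

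**Figure D1:**
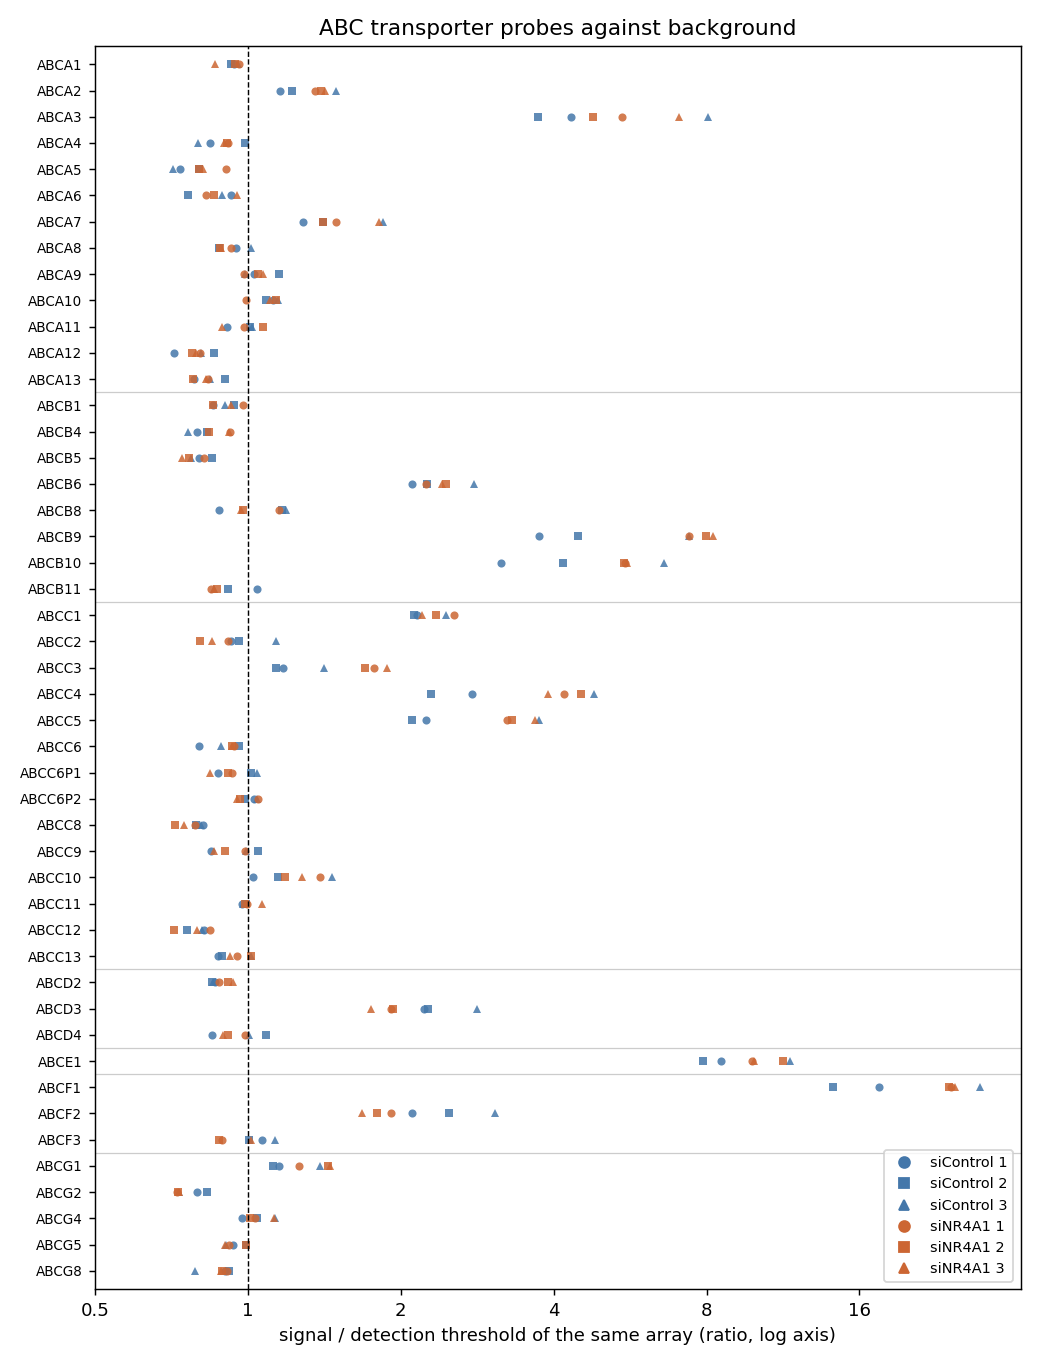
Signal of 47 ABC genes on each array as a ratio to that array's detection threshold (log axis), with the brightest probe standing for a gene, siControl in blue and siNR4A1 in orange. ABCF1 lay between 14.2 and 27.7 times the threshold and ABCE1 between 7.87 and 11.7 times. The 24 genes that were not tested stayed within 0.712 to 1.14 times the threshold. The tested genes ABCA11, ABCC6P2, ABCF3 and ABCG4 also stayed in that band.

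The classical drug efflux pumps were mostly at background in these cells. ABCB1, which encodes P-glycoprotein, was detected on 0 of 6 arrays with both of its probes; the brighter one, ILMN_1812070, gave signals of 87.6, 90.9 and 119 in siControl and of 104, 104 and 115 in siNR4A1. ABCG2, the breast cancer resistance protein, gave 81.5, 80.4 and 96.3 in siControl and 77.3, 88.8 and 91.2 in siNR4A1, also under the threshold on every array. ABCC2, the canalicular conjugate pump MRP2, passed the threshold on siControl replicate 3 alone, with signals of 94.9, 93.3 and 149 in siControl against 97.2, 98.0 and 106 in siNR4A1. No direction can be given for these genes. ABCA1, which loads cholesterol onto apolipoprotein A-I, gave 96.2, 89.9 and 125 in siControl and 103, 115 and 108 in siNR4A1, likewise under the threshold on all 6 arrays. Among other well-known members ABCA4 of the retina, ABCA12 of the skin, ABCB4, ABCC8 (the sulphonylurea receptor of beta cells), ABCD2, ABCG5 and ABCG8 were detected on 0 arrays, and ABCB11, ABCC6 and ABCC9 on 1 array at most with any one probe.

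For the genes tested, signals were background-corrected by normexp with an offset of 50, quantile-normalized and put on the log2 scale, and all values below are such normalized log2 signals of the brightest probe. Changes of dim genes are understated on this offset scale. Of the 25 members, 3 rose (ABCB9 and ABCC3 among them) and 3 fell (ABCD3 and ABCF2 among them) in siNR4A1, at an adjusted p under 0.05 in limma's fit over all 13715 genes, and 19 did not pass. Over all genes tested 19.5% passed, 10.8% rising and 8.7% falling, so the members' share of 24% is near the background. The median log2 change of the 25 was 0.02, as over all genes (0.02), and their median absolute change was 0.15 against 0.17 over all genes. The ranges of the groups did not overlap for 12 of the 25, against 35.4% of all genes tested. When array medians were equalized and no quantile normalization was applied, 0 of the 13715 genes passed in limma (1089 at an unadjusted p under 0.05, among them ABCB9, ABCC3 and ABCF2, at unadjusted p between 0.00902 and 0.0445), so no call below holds under that scaling. ABCB9, ABCC3, ABCD3 and ABCF2 kept their direction there. Under that scaling the groups overlapped for ABCB9 and did not for ABCC3, ABCD3 and ABCF2.

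**Figure D2:**
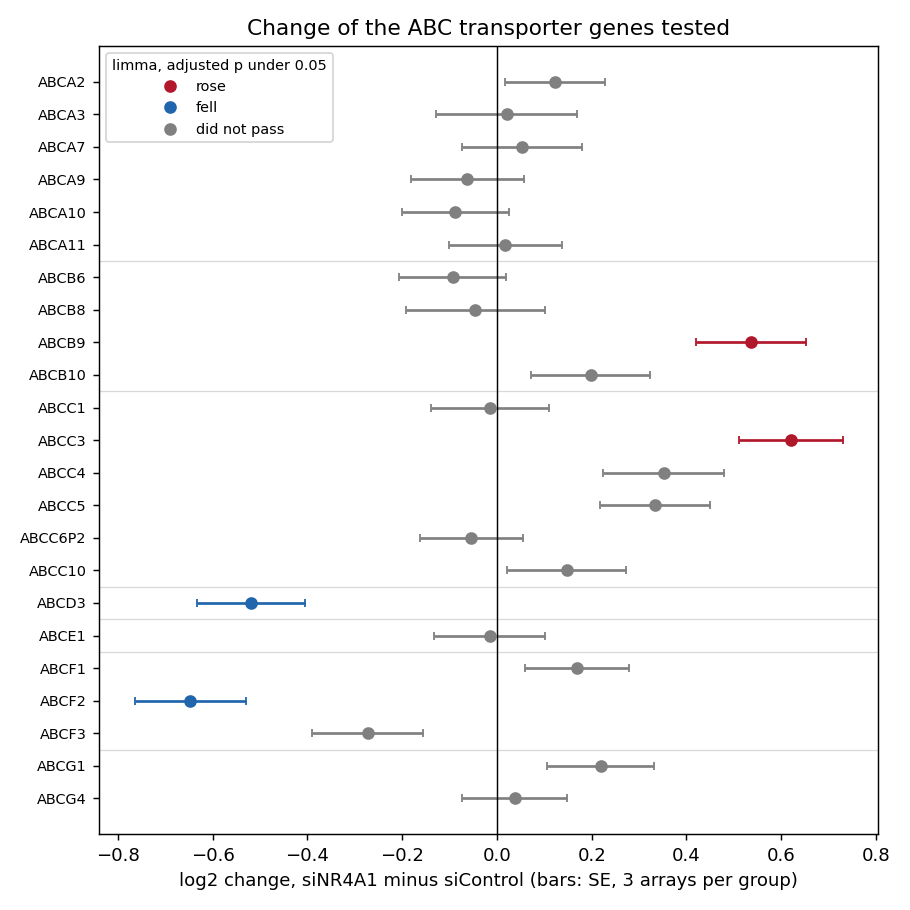
Log2 change in siNR4A1 against siControl with its SE (3 arrays per group) for 23 of the ABC genes tested, by subfamily. ABCB9 and ABCC3 rose (red), ABCD3 and ABCF2 fell (blue), and the 6 tested genes of subfamily A lie between -0.09 and 0.12.

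Promoters are printed for ABCB9, ABCD3 and ABCF2, the called members with an entry in RefSeq's promoter table (GRCh38.p14), so that the GC boxes near their start sites can be seen. NR4A1 binds the NBRE motif AAAGGTCA as a monomer, and it is also known to act through SP1, which binds GC boxes (GGGCGG). Each window runs from 250 bases before the start site to 50 after it, is written 5′ to 3′ on the gene's strand, and shows GC boxes on either strand in capitals, so that CCGCCC is a GC box read on the opposite strand. The windows are chr12:122966414-122966713 on the minus strand for ABCB9, chr1:94418139-94418438 on the plus strand for ABCD3 and chr7:151227156-151227455 on the minus strand for ABCF2.
ABCB9: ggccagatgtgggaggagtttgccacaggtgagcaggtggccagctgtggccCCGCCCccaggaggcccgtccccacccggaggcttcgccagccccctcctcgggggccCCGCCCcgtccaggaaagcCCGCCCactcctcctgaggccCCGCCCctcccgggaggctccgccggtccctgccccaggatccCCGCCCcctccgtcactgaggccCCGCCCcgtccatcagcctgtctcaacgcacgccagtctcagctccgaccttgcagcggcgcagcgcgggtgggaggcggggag
ABCD3: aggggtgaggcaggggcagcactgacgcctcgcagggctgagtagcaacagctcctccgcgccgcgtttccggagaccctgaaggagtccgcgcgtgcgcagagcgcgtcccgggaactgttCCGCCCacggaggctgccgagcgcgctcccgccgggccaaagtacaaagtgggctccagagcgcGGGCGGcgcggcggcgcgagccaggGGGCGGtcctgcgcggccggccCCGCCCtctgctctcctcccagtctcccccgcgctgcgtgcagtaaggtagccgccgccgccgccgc
ABCF2: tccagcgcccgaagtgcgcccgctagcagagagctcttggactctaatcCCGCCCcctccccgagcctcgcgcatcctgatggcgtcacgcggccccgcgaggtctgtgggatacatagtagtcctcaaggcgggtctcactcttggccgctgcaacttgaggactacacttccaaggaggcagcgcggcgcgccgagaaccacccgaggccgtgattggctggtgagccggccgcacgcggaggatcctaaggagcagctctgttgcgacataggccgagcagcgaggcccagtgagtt
The search found 6 GC boxes in the window of ABCB9, which rose, 4 in that of ABCD3 and 1 in that of ABCF2, both of which fell. Of 27305 promoters of this length in the table, 44.6% held a GC box, against 18 of the 35 member promoters in it. Among the 9021 promoters of tested genes 71.1% held one, and the 13 of 18 for tested members is near that share. The NBRE was in 0 of the 35 member promoters, where 1.21% of all promoters held it on either strand. These matches are a description of letters in the window.

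Subfamily B holds half-transporters of mitochondria and lysosomes as well as P-glycoprotein. Among them ABCB9, also called TAP-like, is a peptide transporter of the lysosome. Its signals were 8.95, 9.22 and 9.23 in siControl and 9.57, 9.68 and 9.76 in siNR4A1. The groups did not overlap, and ABCB9 rose by 0.54 ± 0.12 (SE, n = 3 per group), or 1.45-fold (limma, adjusted p = 0.00413). Its second detected probe, ILMN_2343047, changed the same way by 0.36 ± 0.11 (SE; limma over all 18189 kept probes, adjusted p = 0.0382), while ILMN_1788928 was detected on 1 array. ABCB9 overlaps OGFOD2 in RefSeq, and no strand of the probe is given. The call held in 17 of 18 alternatives, all but equalized array medians.

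ABCB10, a mitochondrial protein needed for haem synthesis in red cell precursors, was at 8.66, 9.12 and 9.07 in siControl and at 9.14, 9.12 and 9.18 in siNR4A1. Its siControl arrays spread widely and almost touched the other group, and it differed by 0.20 ± 0.13 (SE; limma, adjusted p = 0.299). Without siControl replicate 1 the difference was 0.05. ABCB6, a porphyrin transporter, differed by -0.09 and the mitochondrial ABCB8, detected on 3 arrays, by -0.05. A wider list held genes of haem synthesis, the pathway named above for ABCB10, together with genes of iron-sulphur cluster synthesis. Of its 25 tested genes 7 rose and 2 fell, where 10.8% of all genes rose and 8.7% fell. The list's median was 0.17 against 0.02 over all genes. CIAO1, which inserts iron-sulphur clusters in the cytosol, rose by 0.91 ± 0.14 (SE), and the haem enzyme CPOX rose by 0.45 ± 0.11 (SE), with limma adjusted p-values of 0.000299 and 0.00687 over all genes. The 2 genes that fell were also haem enzymes. UROD fell by 0.38 ± 0.11 and PPOX by 0.34 ± 0.11 (SE; limma, adjusted p = 0.0242 and 0.0431).

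Subfamily C holds the multidrug resistance proteins (MRPs), which pump out conjugates of glutathione, glucuronide and sulphate. ABCC3 encodes MRP3, a basolateral pump for glucuronides and bile acids. Its signals were 6.82, 6.69 and 6.83 in siControl and 7.38, 7.31 and 7.51 in siNR4A1. The groups were well apart for this dim probe, which was nonetheless detected on all 6 arrays, and ABCC3 rose by 0.62 ± 0.11 (SE, n = 3 per group), or 1.54-fold (limma, adjusted p = 0.00089). A second probe, ILMN_1717466, detected on 3 arrays, differed by 0.13 ± 0.12 (SE; limma over all kept probes, adjusted p = 0.491), and the mean of both stood at 0.37 and still passed. ABCC1, which encodes MRP1, was at 8.02, 7.96 and 7.61 in siControl and at 7.97, 7.82 and 7.77 in siNR4A1. Its groups overlapped, with a difference of -0.01 and a 95% interval from -0.28 to 0.25 (limma, adjusted p = 0.954). The ABCC3 signal less that of ABCC1 within an array moved by 0.63, from -1.08 ± 0.27 (SD, n = 3) to -0.45 ± 0.17 (SD, n = 3; exact two-sided permutation p = 0.1), and by 0.55 with array medians equalized. A common shift of an array cancels in this difference; like the other within-array pairs below, it was chosen after its values were seen, and its p cannot fall below 0.1 in this design.

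ABCC4 and ABCC5 encode MRP4 and MRP5, which also export cyclic nucleotides. ABCC4 was at 8.44, 8.11 and 8.59 in siControl and at 8.73, 8.83 and 8.65 in siNR4A1, so that the groups were apart by a narrow margin. The difference of 0.35 ± 0.13 (SE) missed the threshold (limma, adjusted p = 0.0612), and its second probe, ILMN_1788457, differed by 0.29. It passed in 2 of 18 alternatives, without siControl replicate 3, the brightest array, at 0.45, and in the authors' log2 values at 0.32; without siControl replicate 2 it stood at 0.22.

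In ABCC5 the probes went opposite ways. The brightest, ILMN_1706531, was at 8.09, 7.95 and 8.23 in siControl and at 8.34, 8.36 and 8.56 in siNR4A1, a difference of 0.33 ± 0.12 (SE) that missed the threshold (limma, adjusted p = 0.0512). The other detected probe, ILMN_1651964, was at 7.49, 7.08 and 7.44 in siControl and at 6.86, 6.98 and 6.86 in siNR4A1. That probe fell by 0.43 ± 0.12 (SE) and passed the threshold over all 18189 kept probes, of which 16.4% did (limma, adjusted p = 0.0263). For both probes the groups did not overlap. The difference between them within an array was 0.60, 0.87 and 0.79 in siControl and 1.49, 1.38 and 1.70 in siNR4A1, and it moved by 0.77, or by 0.85 with array medians equalized (exact two-sided permutation p = 0.1 each). With the mean of its probes ABCC5 stood at -0.05. The brightest probe passed in 4 of 18 alternatives, among them leaving out siControl replicate 3 (0.40), so no direction is given for the gene as a whole; an antisense gene, ABCC5-AS1, overlaps it in RefSeq. ABCC10, which encodes MRP7, and the pseudogene ABCC6P2 differed by 0.15 and -0.05.

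**Figure D3:**
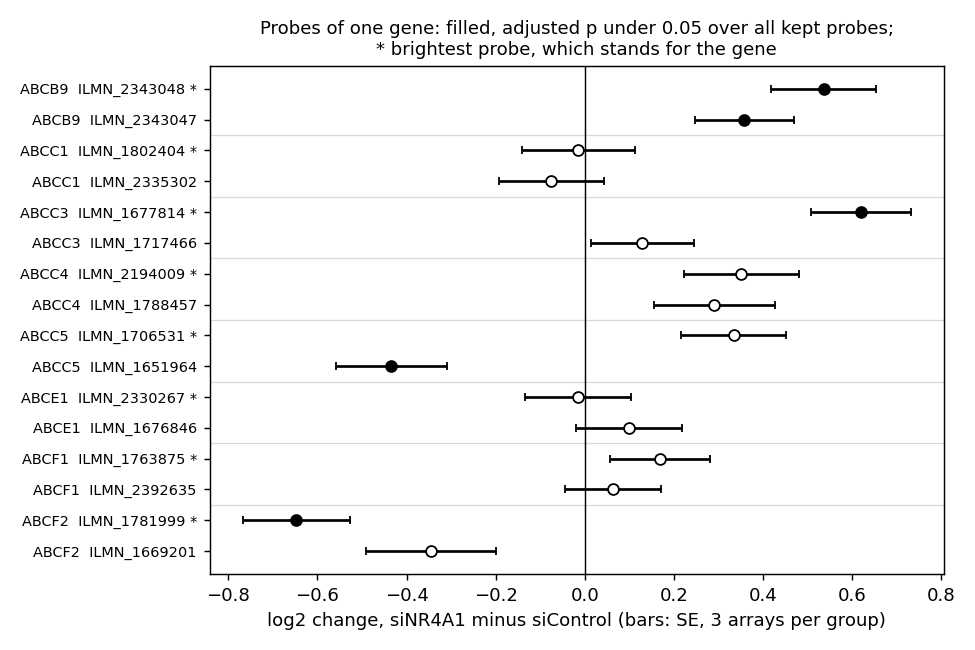
Log2 change with its SE (3 arrays per group) for each detected probe of the 8 ABC genes with more than 1 such probe. Filled points passed an adjusted p under 0.05 over all kept probes: both probes of ABCB9, 1 each of ABCC3 and ABCF2, and the dimmer probe of ABCC5, which lies at -0.43 while the brighter lies at 0.33.

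Subfamily D carries acyl-CoA esters into the peroxisome. ABCD3 encodes PMP70, an abundant peroxisomal membrane protein that takes up branched-chain acyl-CoA and bile acid precursors. Its signals were 8.07, 8.09 and 7.82 in siControl and 7.51, 7.52 and 7.38 in siNR4A1. Every siNR4A1 array lay below every siControl array, and ABCD3 fell by 0.52 ± 0.11 (SE, n = 3 per group), or 1.43-fold (limma, adjusted p = 0.00435). The gene had only 1 probe, so no other probe could be set beside it.

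ABCD4, the lysosomal cobalamin transporter, had 4 probes, each detected on at most 2 arrays, and was not tested. Of 17 tested partners of the subfamily, 4 fell and 1 rose, with a median of -0.08, where 8.7% of all genes fell and 10.8% rose. SLC25A17, a cofactor carrier of the peroxisomal membrane, fell by 1.05 ± 0.12 (SE; limma, adjusted p = 1.26e-05), and HSD17B4, the bifunctional enzyme of peroxisomal beta-oxidation, fell by 0.53 ± 0.11 (SE; limma, adjusted p = 0.00312). PEX5, the import receptor of the peroxisomal matrix, rose by 0.41 ± 0.11 (SE; limma, adjusted p = 0.0128). PEX3 and PEX19, which insert membrane proteins such as PMP70, differed by -0.10 and 0.11 and did not pass.

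Subfamilies E and F encode soluble proteins of translation, and ABCF1 and ABCE1 gave the highest signals relative to background among the members. ABCE1, which splits ribosomes after termination, was at 10.22, 10.11 and 9.91 in siControl and at 9.98, 10.19 and 10.01 in siNR4A1. Its groups overlapped, with a difference of -0.02 and a 95% interval from -0.26 to 0.23 (limma, adjusted p = 0.947). A second probe differed by 0.10. RefSeq lists 2 pseudogene copies of ABCE1. A probe of ABCE1P2, a copy outside the naming rule, was brighter than ABCE1, with means of 10.55 in siControl and 10.68 in siNR4A1. Whether the probes of ABCE1 and its copies share signal was not tested. ABCF1, which binds the initiation factor eIF2, was at 11.25, 11.00 and 11.19 in siControl and at 11.32, 11.30 and 11.33 in siNR4A1, a difference of 0.17 ± 0.11 (SE; limma, adjusted p = 0.312) that stood at 0.097 without siControl replicate 2. On this brightest probe of ABCF1 the siNR4A1 arrays all lay above the siControl arrays, by a margin smaller than the spread within siControl. A second probe, ILMN_2392635, detected on 6 arrays, differed by 0.06 ± 0.11 (SE, limma over all kept probes, adjusted p = 0.741), and its groups overlapped.

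ABCF2, a relative of the yeast ribosome biogenesis factor Arb1, was the member of this group that changed. It was at 7.97, 8.25 and 7.94 in siControl and at 7.51, 7.40 and 7.31 in siNR4A1. With no overlap between groups, it fell by 0.65 ± 0.12 (SE, n = 3 per group), or 1.57-fold (limma, adjusted p = 0.0011). A second probe, ILMN_1669201, differed by -0.34 ± 0.15 (SE; limma over all kept probes, adjusted p = 0.119) and its groups overlapped, since siControl replicate 3 lay at 7.05 beside 7.55 and 7.70, and ILMN_2284941 was detected on 0 arrays. RefSeq lists 2 pseudogene copies and a readthrough gene, ABCF2-H2BK1, that overlaps ABCF2. ABCF3, a relative of yeast Gcn20, was at 6.60, 6.38 and 6.52 in siControl and at 6.14, 6.13 and 6.41 in siNR4A1. It was detected on 3 siControl arrays and 1 siNR4A1 array and differed by -0.27 ± 0.12 (SE; limma, adjusted p = 0.116), so its direction is not settled. The ABCF1 signal less that of ABCF2 moved by 0.82 within an array, from 3.10 ± 0.30 (SD, n = 3) to 3.91 ± 0.11 (SD, n = 3), or by 0.94 with array medians equalized (exact two-sided permutation p = 0.1 each). Among 18 tested partners in ribosome rescue and initiation, 4 rose and 1 fell (10.8% and 8.7% of all genes). EIF5, the GTPase activator of eIF2, rose by 0.93 ± 0.11 (SE; limma, adjusted p = 2.24e-05) on its brightest probe and by 0.42 in the mean of its probes, while PELO and GCN1, the partners of ABCE1 and of yeast Gcn20, differed by -0.05 and -0.15 and did not pass.

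**Figure D4:**
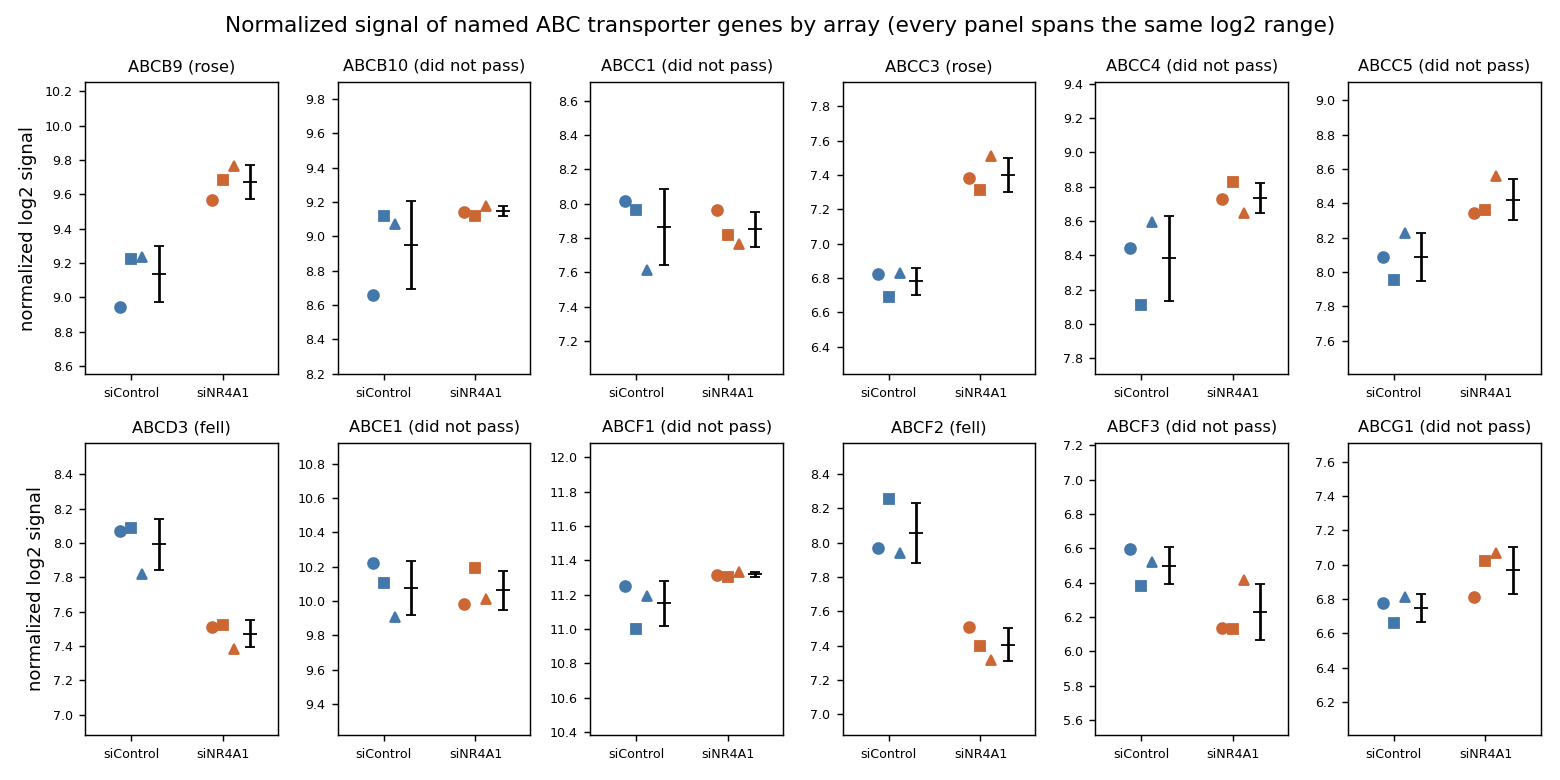
Normalized log2 signal on each array for the 12 ABC genes named and tested, with circles, squares and triangles for replicates 1, 2 and 3 and the black mark for the mean ± SD of 3 arrays. ABCD3 and ABCF2 lie lower and ABCB9 and ABCC3 higher on all 3 siNR4A1 arrays, while the groups overlap for ABCC1, ABCE1 and ABCF3.

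No gene of subfamily A passed. ABCA3, which packs phospholipid into lamellar bodies of the lung, was the brightest of them relative to background, at 9.18, 8.94 and 9.37 in siControl and at 9.12, 8.90 and 9.53 in siNR4A1. It varied by 0.32 (SD) within siNR4A1, so its difference of 0.02 ± 0.15 (SE) lies far inside the spread between arrays (limma, adjusted p = 0.946). ABCA2, an endolysosomal lipid transporter, differed by 0.12, ABCA7, a phospholipid transporter of phagocytic cells, by 0.05, and the linked genes ABCA9 and ABCA10 by -0.06 and -0.09. ABCA11, a pseudogene detected on 3 arrays, differed by 0.02.

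In subfamily G the only members detected widely enough were ABCG1 and ABCG4, both sterol transporters. ABCG1 was at 6.78, 6.66 and 6.81 in siControl and at 6.81, 7.02 and 7.07 in siNR4A1 on 1 of its 6 probes; the other 5 did not reach 3 arrays. Its groups nearly touched, and the difference of 0.22 ± 0.11 (SE) did not pass (limma, adjusted p = 0.192). ABCG4 differed by 0.04 ± 0.11 (SE). The wider sterol efflux list had 4 of 19 tested genes rising and 1 falling, beside 10.8% and 8.7% of all genes. NCEH1, which hydrolyses stored cholesteryl esters, rose by 0.90 ± 0.11 (SE) and MYLIP, a target of the sterol-sensing receptor LXR that degrades the LDL receptor, by 0.75 ± 0.14 (SE), with limma adjusted p-values of 2.71e-05 and 0.00115; the LXR genes NR1H2 and NR1H3 differed by -0.09 and 0.26 and did not pass.

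Some ABC proteins carry other symbols. TAP1, a subunit of the peptide pump that feeds class I antigen presentation, fell by 0.32 ± 0.11 (SE; limma, adjusted p = 0.0425), a call kept in 8 of 18 alternatives. Leaving out siControl replicate 1 (-0.33) or 3 (-0.28) ended it, as did leaving out siNR4A1 replicate 1 (-0.31), 2 (-0.34) or 3 (-0.31). Its partner TAP2 differed by -0.06, and CFTR, the chloride channel of the family, was detected on 0 arrays. TAPBP (tapasin), which docks class I molecules on that pump, fell by 0.63 ± 0.11 (SE; limma, adjusted p = 0.000709), and by 0.42 in the mean of its probes; of 12 tested genes of peptide loading 1 rose and 2 fell. Of 18 genes that make glutathione or attach it and other groups to MRP substrates 0 rose and 2 fell, and of 10 drug uptake carriers 1 rose and 0 fell. Over all genes 10.8% rose and 8.7% fell, 19.5% in either direction.

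**Figure D5:**
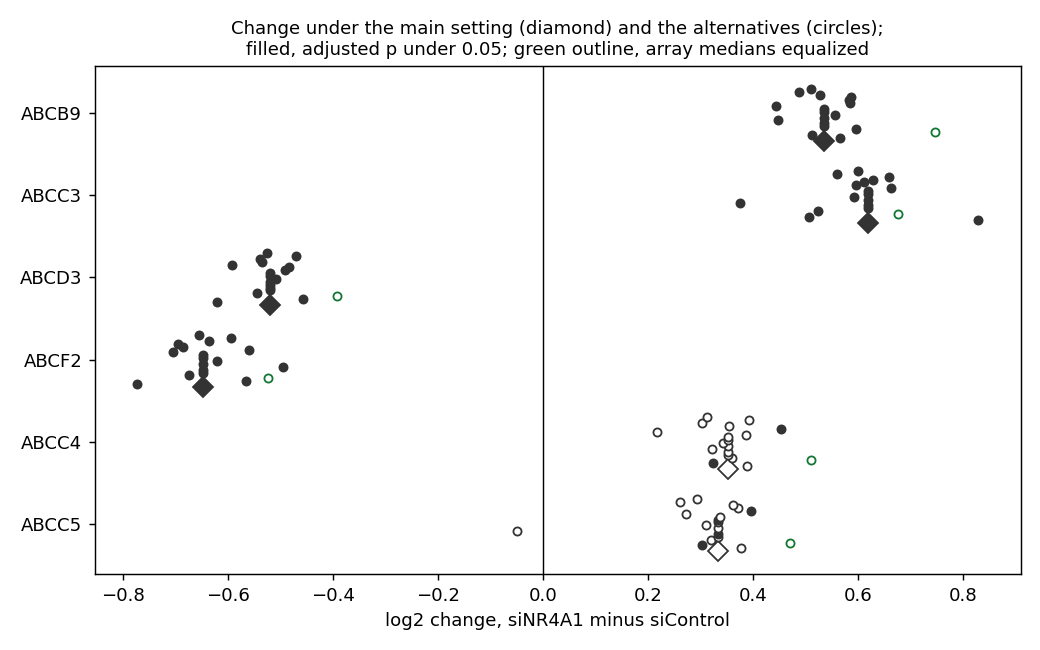
Log2 change of 4 called ABC genes and of ABCC4 and ABCC5 in the reported fit (diamonds) and in 18 alternatives (circles), filled where the adjusted p was under 0.05. With array medians equalized (green outline) no gene passed, and the lowest point of ABCC5, at -0.05, is the mean of its opposed probes.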

How the data were processed

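Total RNA of 6 PANC-1 samples had been labelled with biotin and read on Illumina BeadChips. The submitters' processing notes name BeadStudio, with no version. The deposited intensity table holds linear probe signals that are not normalized per the file headers, with no detection p-values or control probes. The deposited log2 table of the authors equals quantile normalization of the log2 signals within 0.005 and served as an alternative.

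The design foresaw neqc or, without controls, normexp; the latter was used (offset 50), then quantile normalization and log2. Background was the mode of an array's log2 signals (density bandwidth 0.03) with its spread from the values below the mode. Probes were named through RefSeq's gene table of GRCh38.p14; 48 members carried a current symbol and ABCA11 an older one. The brightest of the kept probes stood for a gene, whatever its direction. The 2 groups were fitted without covariates by limma 3.58.1 in R 4.3.3 (lmFit, then eBayes), with Benjamini-Hochberg adjustment over 13715 genes at 0.05. The steps were checked on simulated signals. Same-numbered samples deviated together with correlations of 0.034, 0.084 and 0.17, which does not establish pairing.

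Counts cover all members; results of some members are not reported here. Members and gene lists were chosen with earlier results of these data known. Named were the remaining members past the threshold, 8 chosen for their role, and the 6 largest changes that did not pass. Of the gene lists, at most 4 members past the threshold each were named, of which the text prints a part. UROD, PPOX and a few partners that did not pass were chosen after their values were seen.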

Additional observations from a re-analysis of the deposited data

How the results depend on the processing

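The called or named genes were refitted under up to 18 alternatives, giving 843 values; 683 kept direction and side of the threshold, 142 lost a call, 6 gained one and 0 reversed a call. The other 12 changed sign without a call on either side, 5 for ABCC1, 6 for ABCE1 and 1 for ABCC5. With array medians equalized the median over all genes shifted to 0.13, and 0 genes passed, with 0 members rising and 0 falling; relative to that shift ABCF2 stood at -0.65, ABCD3 at -0.52, ABCB9 at 0.62 and ABCC3 at 0.55. The SEs were larger there (0.22 to 0.29 for these 4). Equalizing the medians of detected probes alone gave 1254 changed genes. With array medians equalized the uncalled ABCB6, ABCC1 and ABCE1 changed sign; with detected medians the uncalled ABCA7 (-0.04), ABCA11 (-0.14), ABCC10 (-0.01), ABCG4 (-0.12) and ABCE1 (0.07) did, ABCG1 stood at 0.11 and ABCF3 stood at -0.42. The authors' log2 values gave 5 members that rose, adding ABCC4 and ABCC5. Leaving out 1 array gave 1507 to 3011 changed genes, 2 to 4 members that rose and 3 that fell; without siNR4A1 replicate 2 or 3 the totals were 1773 and 1507. The replicate block gave 2998 changed genes, 4 members that rose, with ABCC5 added, and 3 that fell; whether the numbers mark paired cultures is not given. Cyclic loess, chosen after seeing the data, gave 2725 changed genes and kept all 6 member calls. The causes were not tested. At the 99% point of the background, or with detection required on 6 arrays or on 1, the members above background numbered 20, 18 and 34 in place of 25. Low signal over background is the limit for the 24 members that were not tested.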

Other observations

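A further list held genes that handle sphingolipids or the lipids of lamellar bodies. Of its 12 tested genes 4 rose and 0 fell, with a median log2 change of 0.09. Over all genes tested 10.8% rose and 8.7% fell. SPHK1, which makes sphingosine 1-phosphate, rose by 0.91 (limma, adjusted p = 5.61e-05), the largest change in that list. Among 8 tested sensors and regulators of drug-handling genes 2 rose and 1 fell, beside the same shares of all genes, and NFE2L2, which encodes the oxidative stress regulator NRF2, differed by -0.28 (limma, adjusted p = 0.0956).

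Some probes whose symbols fall outside the naming rule match pseudogenes of the family in RefSeq. ABCE1P2, ABCE1P1 and ABCB10P4 were tested and differed by 0.13, 0.01 and -0.10, none passing the threshold, while ABCA3P1 and ABCB10P3 were detected on 0 arrays. KCNJ8, a channel partner of the sulphonylurea receptors, was detected on 3 arrays and differed by -0.03, and KCNJ11 was detected on 0.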
